A study of Mus musculus with 267 samples.

Results

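The regions described here are PU1 binding sites that were present in every PU1 peak list of bone marrow-derived macrophages (BMDMs) from 5 inbred mouse strains, before and after IL-4. They were chosen by overlap: a PU1 peak of basal C57 BMDMs was kept when each of the 9 other PU1 lists held a peak that shared at least 1 bp with it. Of 85916 peaks in the basal C57 list, 37040 (43.1%) were kept and are called constant PU1 sites below, and the remaining 48876 are called the other PU1 peaks. BMDMs were grown from marrow of adult female mice with M-CSF for 7 days and were left untreated (basal) or given 20 ng/mL IL-4 for 24 h. The strains were SPRET/EiJ (SPRET), PWK/PhJ (PWK), C57BL/6J (C57), BALB/cJ (BALB) and NOD/ShiLtJ (NOD), and C57 BMDMs were also treated for 1 and 6 h. Further BMDMs came from mice with a floxed Egr2 gene without Cre (Egr2flfl) or with LyzM-Cre (LyzMCreEgr2flfl), in which the Lyz2 promoter drives Cre in myeloid cells. Chromatin immunoprecipitation sequencing (ChIP-seq) was done for PU1, STAT6, EGR2, PPARg, CEBPb, RNA polymerase II (Pol II) and the histone marks H3K27ac, H3K4me2 and H3K4me3. The series held 267 samples in 138 groups. The replicates are stated to be biological, mostly 2 per group, and nothing ties a library to an animal, so p-values measure only the spread between these libraries. The 135 libraries with values of their own held 4691644 to 29050468 tags, with a median of 12916523.

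PU1 is the product of Spi1, a transcription factor of the ETS family that all macrophages carry. It binds DNA around a GGAA core, opens chromatin together with partners such as C/EBP and AP-1 factors, and marks much of the enhancer repertoire of the macrophage. IL-4 acts through its receptor and JAK kinases on STAT6, and EGR2 and PPARg are factors that take part in the later response. H3K27ac marks active enhancers and promoters, H3K4me2 marks both, and H3K4me3 marks promoters.

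The sequences of some of these sites are printed first, from the plus strand of GRCm38 (mm10), the build of the peak lists. The first set holds 2 of the 3 constant sites with the highest deposited PU1 value in basal C57, and they are shown because they carry repeated PU1 letters or none. The second set holds 100 bases of sites where H3K27ac rose or fell most at 24 h. These windows were placed around the GAGGAA, or failing that the GGAA, nearest to the peak centre. Capitals in their middle follow from this placing. The last is a site that no basal list of STAT6, EGR2 or PPARg covered but that all 3 covered at 24 h in 2 strains. Capitals mark GAGGAA or its reverse complement TTCCTC, the central letters of the PU1 motif. Where neither occurs, capitals mark the GGAA or TTCC nearest to the peak centre.
strongest site, inside the noncoding gene Gm26917 (chr17:39843342-39843555): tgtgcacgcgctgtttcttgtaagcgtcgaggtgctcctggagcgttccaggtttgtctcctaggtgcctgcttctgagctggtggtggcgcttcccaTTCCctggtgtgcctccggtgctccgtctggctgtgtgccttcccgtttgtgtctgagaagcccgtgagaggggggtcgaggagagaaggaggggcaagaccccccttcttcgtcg
near a start of a Jazf1 transcript (chr6:52842665-52842876): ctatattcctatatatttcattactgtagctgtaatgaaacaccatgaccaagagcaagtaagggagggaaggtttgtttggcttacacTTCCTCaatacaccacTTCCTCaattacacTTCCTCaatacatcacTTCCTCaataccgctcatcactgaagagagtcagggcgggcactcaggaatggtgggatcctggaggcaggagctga
intron of Rmi2, H3K27ac rose (chr16:10844163-10844262): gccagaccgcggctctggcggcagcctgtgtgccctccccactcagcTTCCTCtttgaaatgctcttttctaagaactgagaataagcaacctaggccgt
upstream of Jak2, H3K27ac rose (chr19:29239668-29239767): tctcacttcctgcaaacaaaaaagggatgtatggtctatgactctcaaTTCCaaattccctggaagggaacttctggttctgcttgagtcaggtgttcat
upstream of Itga6, H3K27ac fell (chr2:71662188-71662287): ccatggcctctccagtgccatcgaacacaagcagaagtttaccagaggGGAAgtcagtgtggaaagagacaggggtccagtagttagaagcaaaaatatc
upstream of Mvb12b, H3K27ac fell (chr2:33908438-33908537): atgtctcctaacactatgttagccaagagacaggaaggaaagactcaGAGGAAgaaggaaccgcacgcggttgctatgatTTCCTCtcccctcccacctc
upstream of Il1rl2, factors came at 24 h (chr1:40322654-40322859): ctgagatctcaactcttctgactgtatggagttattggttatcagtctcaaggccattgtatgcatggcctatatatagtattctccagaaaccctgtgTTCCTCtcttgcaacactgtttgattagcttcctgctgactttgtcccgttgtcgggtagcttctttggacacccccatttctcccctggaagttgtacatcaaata
The Jazf1 site holds 4 copies of TTCCTC. The site inside Gm26917 and the Jak2 and Itga6 sites hold no GAGGAA in the window shown. Gene names give the closest start of a protein-coding gene or the gene overlapped, and no link between a site and the activity of that gene was measured.

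The number of lists that shared a basal C57 peak rose with its PU1 value, which is a description, since these lists and values chose the sites. Peaks found in no other list numbered 1574 and had a median deposited PU1 value of 29, the number the lists give per peak under the name count. Peaks just outside the rule, in 8 of the 9 other lists, numbered 8921 with a median of 64 and a range of 24 to 897. Sites just inside it, in all 9, had a median of 136 and a range of 24 to 742. Most peaks that missed a single list missed a 24 h list of the wild-derived strains, 2550 that of PWK and 2554 that of SPRET. With the basal C57 peaks ordered by PU1 value and cut into 4 equal classes, 4.80% of the lowest class and 82.8% of the highest were constant. A further 10036 peaks were in every basal list but not in every 24 h list, with a median value of 58. The lists of PWK at 24 h and SPRET at 24 h held 73028 and 80580 peaks, against 82863 to 99217 for the 24 h lists of the other strains. Presence in both lists of the other 4 strains with absence from both SPRET lists was seen for 4802 peaks, and the same for PWK for 2095 peaks.

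**Figure D1:**
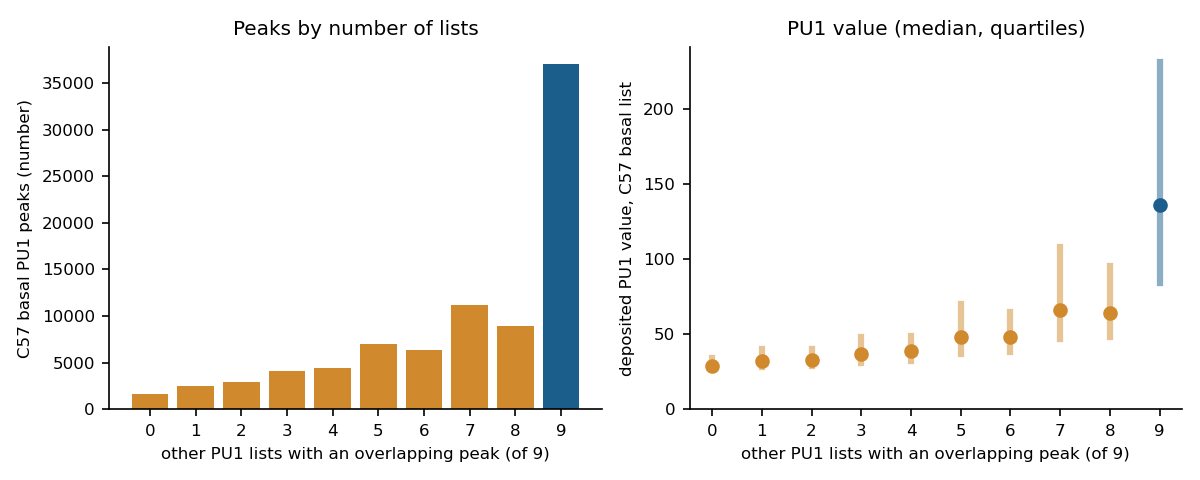
Basal C57 PU1 peaks by the number of other PU1 lists (of 9) with an overlapping peak; left, number of peaks as bars, right, deposited PU1 value as median (point) and quartiles (line). The 37040 constant sites are in blue, with a median of 136, and peaks in 0 to 8 lists have medians of 29 to 66.

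Constant presence was not constant strength. After each list was scaled to its median over the 37040 sites, the highest of the 5 basal values of a site was a median of 1.55-fold above the lowest. For 27059 sites (73.1%) this spread was within 2-fold, and for 1468 sites (3.96%) it exceeded 4-fold. Among those 1468 sites, the lowest value was in SPRET at 596, in PWK at 254, in C57 at 230, in BALB at 206 and in NOD at 182. Promoters made up 22.9% of the sites within 2-fold and 6.13% of the sites over 4-fold. Within a strain, the scaled 24 h value was within 2-fold of the basal value at 98.0% to 99.1% of sites. Rank correlations of PU1 values over the 37040 sites, given as a description, were 0.933 and 0.939 between the basal lists of C57 and NOD or BALB. They were 0.836 between C57 and PWK and 0.739 between C57 and SPRET.

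The site with the highest basal C57 value had high deposited values in every list. The site inside Gm26917 had PU1 values of 742 in C57, 808 in BALB, 811 in NOD, 710 in PWK and 597 in SPRET under basal conditions, and of 722, 779, 833, 625 and 535 at 24 h. The site at Jazf1 had basal values of 703, 729, 683, 266 and 246 in the same order. It was thus lower in PWK and SPRET than in the other 3 strains, in their 24 h lists too, where PWK and SPRET had 214 and 219. Repeats covered 19.6% of the printed Gm26917 sequence and 40.1% of that at Jazf1, and the part of repeated sequence in these values was not tested. At the Gm26917 site, which holds no GAGGAA, Pol II was 83.0, 169, 86.3 and 301 in the basal C57 libraries. Whether its PU1 value reflects bound PU1 was not tested.

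Constant sites lay at promoters somewhat more often than the other peaks. A promoter here is within 1000 bp of a gene start of the GENCODE annotation, and 7061 constant sites (19.1%, exact 95% interval 18.7% to 19.5%) were at one, against 13.5% (13.1% to 13.8%) of the other PU1 peaks. Introns held 46.9% of constant sites, intergenic DNA 28.4% and exons 5.60%, against 48.1%, 32.97% and 5.45% of the other peaks. Intervals here and below are Clopper-Pearson intervals that cover counting error only, and neighbouring peaks are not independent, so no test between the sets was made. The median distance to a gene start was 8615 bp for constant sites and 10783 bp for the others. Counted from the peaks at promoters, 51.8% were constant, against 39.5% of those in intergenic DNA. The shares of constant sites were between 40.7% and 46.3% on every autosome and were 40.8% on the X chromosome.

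The sites lay close to most genes of the macrophage. Each of 25 genes of a macrophage identity list had at least 1 constant site whose nearest gene start was its own, within 50 kb, with 148 such sites in all. Of 25 IL-4 response genes, 23 had one (93 sites), and the remaining pair, Retnla and Chil3, had only other PU1 peaks. Of 20 inflammatory genes 19 had one (90 sites), and of 10 genes of the IL-4 receptor and STAT6 pathway 9 had one. Among all 21924 protein-coding genes, 11038 (50.3%) had one. Lists of genes that mark other cells of the marrow had fewer, with 5 of 10 T cell genes, 5 of 10 B cell genes, 4 of 10 neutrophil genes, 5 of 10 erythroid genes and 3 of 10 fibroblast genes, while 8 of 10 dendritic cell genes and 8 of 10 housekeeping genes had one. The macrophage identity genes also had 130 other PU1 peaks, so that 53.2% of their basal C57 PU1 peaks were constant. This share was 54.4% at IL-4 response genes, 59.2% at inflammatory genes and 44.8% at all protein-coding genes. It was 48.5% at T cell, 33.3% at B cell, 38.5% at neutrophil and 41.7% at erythroid genes. At dendritic cell genes it was 46.2%, and at fibroblast and housekeeping genes 50%. The genes with the most constant sites were Apbb1ip and Fam49b with 17 each and Arhgap25, Ggta1 and Lyn with 16 each. Lyn is a SRC-family kinase of myeloid receptors.

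Spi1 itself, the gene for PU1, had 8 constant sites and 2 other peaks. Its strongest site lay 1064 bp upstream of the gene start, at chr2:91081223-91081429, with basal PU1 values of 364 in C57, 405 in BALB, 350 in NOD, 350 in PWK and 353 in SPRET. These values lay close together in all 5 strains. Runx1, a transcription factor of blood development, had 14 sites, the most in the list, and Cd300a, an inhibitory receptor, had 12. Csf1r, the receptor for M-CSF, had 11, and Lgals3, which encodes galectin-3, also had 11. Tlr4, the receptor for lipopolysaccharide, had 10, and its strongest site lay 22 bp from the gene start, at chr4:66827504-66827709. PU1 values at the Tlr4 site were 649, 648, 634, 570 and 531 in basal C57, BALB, NOD, PWK and SPRET. Ptprc, the phosphatase CD45 of leukocytes, had 10 sites, and Irf8, a factor of the monocyte lineage, had 8. Among the IL-4 response genes, Tgm2, a transglutaminase, had 8 sites. Mrc1, the mannose receptor, had 7, as had Myc, Flt1, Irf4 and Socs1, while Mmp12, a macrophage elastase, and Egr2 had 6 each. The strongest Mrc1 site (chr2:14206878-14207088) had basal PU1 values of 549, 511, 479, 457 and 380 in the same order of strains. The strongest Egr2 site, 45499 bp upstream at chr10:67489861-67490091, was weaker, with 135, 126, 128, 133 and 154.

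The letters of the PU1 motif were centred on the sites. GAGGAAGT on either strand occurred in the 200 bp around the centre of 8400 constant sites (22.7%, 22.3% to 23.1%) and of 17.5% (17.2% to 17.8%) of 48875 other PU1 peaks. In windows of the same length 1000 bp away it occurred at 1.40% of constant sites. Its median distance from the centre was 9 bp. The shorter GAGGAA, which lies inside GAGGAAGT, occurred in 57.8% of constant sites and 53.7% of the other peaks, and the bare GGAA in 99.6% and 98.9%, against 87.9% in the windows 1000 bp away. In the class of peaks with the highest PU1 value, GAGGAAGT occurred at 27.1% of constant sites and 23.3% of the others, and in the third class at 18.5% and 18.6%. At promoters 13.1% of constant sites held it and elsewhere 24.9%. Sites with a basal spread over 4-fold held it at 25.7% (23.5% to 27.997%) and sites within 2-fold at 21.97% (21.5% to 22.5%). These windows were read from the reference genome alone, so alleles of the other strains were not compared. The C/EBP motif TTGCNNAA occurred at 11.7% of constant sites, the AP-1 motif TGANTCA at 12.1% and the RUNX motif TGTGGT at 17.4%, against 8.17%, 5.81% and 14.99% in the windows 1000 bp away and 10.1%, 10.4% and 15.7% at the other PU1 peaks. Repeats covered at least 50% of the window at 6.08% of constant sites and 14.2% of the other peaks.

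The 4 further factors had peaks at many of the constant sites already before IL-4. In basal C57 BMDMs, 18411 sites (49.7%, 49.2% to 50.2%) held a STAT6 peak, 8172 (22.1%) a CEBPb peak, 3633 (9.81%) an EGR2 peak and 3565 (9.62%) a PPARg peak. The shares at the other PU1 peaks were 16.9%, 8.79%, 3.68% and 3.34%. At least 1 of 44 lists of these factors covered all but 14.2% of constant sites, against all but 45.1% of the other PU1 peaks, and 18 sites were covered by all 44. The shares also rose with the PU1 value. In the class of peaks with the lowest PU1 value, 11.2% of 1042 constant sites and 6.99% of the others held a basal STAT6 peak, and in the highest class 72.4% and 59.9%. Basal EGR2 peaks lay at 22.97% of constant sites in promoters but at 6.52% of those in introns. STAT6 peaks lay at 50.6% of promoter sites and 48.8% of intron sites, and CEBPb peaks were less common at promoters (16.5%) than in introns (22.8%).

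After 24 h of IL-4, more constant sites held a peak of EGR2, PPARg and CEBPb in C57, with 30.8%, 38.2% and 35.9%, and 54.1% held a STAT6 peak. A site that held no peak of a factor in the basal list and held one at 24 h is said to have gained it. STAT6 was gained at 12.5% of constant sites in C57, 11.8% in BALB, 8.36% in NOD, 25.3% in PWK and 13.8% in SPRET. Over all 85916 basal C57 PU1 peaks the shares were 10.7%, 7.51%, 5.99%, 17.2% and 9.08%. EGR2 was gained at 21.3%, 6.91%, 1.34%, 8.79% and 18.7% in the same order, against 13.8%, 5.04%, 0.916%, 5.64% and 12.1% of all peaks. PPARg was gained at 29.5%, 17.7%, 24.0%, 12.9% and 7.40%, against 20.6%, 11.5%, 16.6%, 9.8% and 4.28%. CEBPb was gained at 14.7%, 15.8%, 19.2%, 7.07% and 3.396%, against 11.1%, 11.6%, 13.9%, 4.92% and 2.25%. The share was thus higher at constant sites than over all PU1 peaks in each of the 20 pairs of a factor and a strain. Within the class of highest PU1 value in C57, STAT6 was an exception, gained at 9.81% of constant sites and 11.5% of the others.

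These gains moved with the lengths of the lists. The EGR2 list of C57 grew from 8437 to 29407 peaks, the PPARg list from 7627 to 39088 and the STAT6 list from 30589 to 39537. When the longer list of each pair was shortened by score to the length of the shorter, the share of constant sites with an EGR2 peak in C57 was 9.81% basal and 10.3% at 24 h. That with a PPARg peak was 9.62% and 10.5%, and that with a STAT6 peak 49.7% and 45.7%. PWK had the largest drop at equal length, for PPARg, from 19.5% to 12.3%. EGR2 in NOD had a shorter list at 24 h (16604 peaks) than in the basal state (25341), and the share fell from 22.1% to 14.8% as deposited, and from 15.7% to 14.8% at equal length. Each list stands for a group of replicates, so the shares have no replicate error and were not tested. The peaks that were new at 24 h lay on constant sites less often than the peaks kept from the basal state in each of the 20 pairs. In C57, 28.3% of 16281 new STAT6 peaks and 66.4% of 23256 kept ones lay on a constant site, and for EGR2 the shares were 36.8% of 21322 and 43.9% of 8085.

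**Figure D2:**
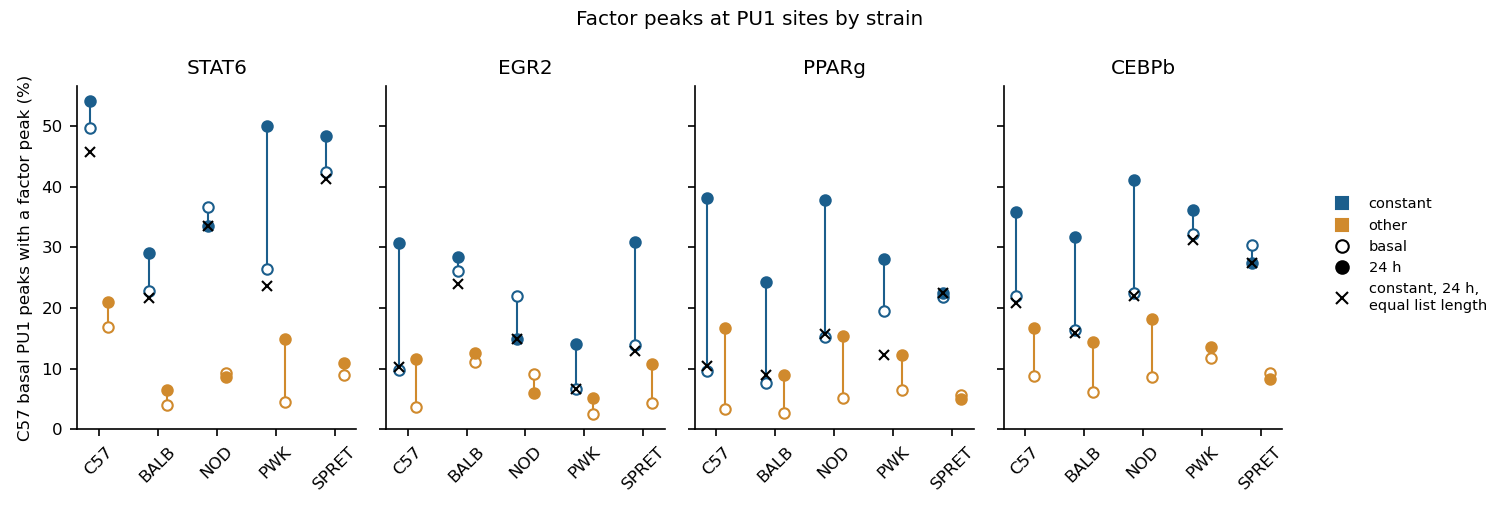
Share of basal C57 PU1 peaks with a peak of STAT6, EGR2, PPARg or CEBPb in each strain, in percent, for constant sites (blue) and other PU1 peaks (orange), basal (open) and 24 h of IL-4 (filled). Crosses give constant sites at 24 h with lists of equal length, where the C57 share with an EGR2 peak is 10.3% in place of 30.8%.

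In the C57 time course, STAT6 peaks lay at 49.7% of constant sites in the basal state, 35.7% at 1 h, 37.5% at 6 h and 54.1% at 24 h, with lists of 30589, 24376, 23884 and 39537 peaks. EGR2 peaks lay at 9.81%, 16.9%, 15.8% and 30.8%, with lists of 8437, 13562, 13072 and 29407 peaks. The order of the shares was that of the list lengths for EGR2, and for STAT6 too apart from 1 h and 6 h. STAT6 was held in all 4 lists at 9981 sites (26.9%) and only in the 24 h list at 2557 (6.90%). EGR2 was held in all 4 at 3160 sites (8.53%) and only in the 24 h list at 4554 (12.3%).

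The factors' own motif letters were most common at different groups of sites. The EGR motif GCGNGGGCG occurred at 8.29% (7.41% to 9.23%) of constant sites with a basal EGR2 peak in C57. It occurred at 0.964% (0.761% to 1.21%) of sites that gained EGR2 and at 0.196% of sites with neither. Promoters held 1622 of the 3633 sites with a basal EGR2 peak and 1869 of the 7881 that gained one. This motif lay at 4.89% of constant sites at promoters and 0.274% elsewhere, and the part of promoters in the EGR2 groups was not tested. The C/EBP motif occurred at 28.8%, 11.6% and 5.69% of the CEBPb groups with a basal peak, a gained peak and neither. The nuclear receptor motif AGGTCA occurred at 23.4%, 13.7% and 9.83% of the PPARg groups. For STAT6 the order differed, with TTCNNNNGAA at 6.50% (6.15% to 6.87%) of sites with a basal peak, 11.2% (10.3% to 12.2%) of sites that gained one and 4.21% of sites with neither.

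All 3 IL-4 factors, STAT6, EGR2 and PPARg, met at few constant sites in every strain. At 24 h, 562 sites (1.52%) held all 3 in each of the 5 strains, against 39 (0.0798%) of the other PU1 peaks, and 28747 sites (77.6%) held all 3 in no strain. No basal list of these 3 factors in any strain covered 10189 constant sites (27.5%) or 31501 of the other PU1 peaks (64.5%). Of those constant sites, 59 held all 3 at 24 h in 1 strain (0.159% of all constant sites), 6 in 2 strains and 0 in 3 or more. Of the 31501 other PU1 peaks, 83 did so in 1 strain (0.170% of all other PU1 peaks), 4 in 2 and 1 in 3. These shares of all sites were close. Of the 10189 and 31501 sites without such a basal peak, the share was larger at constant sites.

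Marks of active chromatin were stronger at constant sites. These sites also had higher PU1 values, with a median of 136 against medians of 29 to 66 for peaks in fewer lists. The marks were not split by PU1 value. The deposited tables give tags per 1000 bp of open chromatin region, scaled to 10000000 tags per library, and a region was matched to a constant site when their centres lay within 500 bp. This gave 25269 such regions of 67742 in C57, 25679 of 54022 in BALB, 28261 of 68932 in NOD, 25707 of 60175 in PWK and 22687 of 54755 in SPRET. In basal C57, the median H3K27ac of these regions was 67.2 and 72.0 normalized tags in the 2 libraries, against 32.6 and 33.5 at regions with another PU1 peak and 4.75 and 4.28 at regions with neither. In each of the 20 libraries of the 5 strains, the medians stood in this order. Since the sites were defined in basal C57, regions with neither include sites that PU1 held only in another state or strain. At promoters the medians of constant sites were 152 and 119.8, and away from promoters 46.1 and 55.6, against 21.03 and 22.8 at other PU1 peaks away from promoters. H3K4me2 was 62.1 and 59.1 at constant sites against 50.6 and 49.3 at other PU1 peaks, and H3K4me3 was 8.01 and 8.78 against 5.82 and 6.34. SPRET was an exception for H3K4me3, with 9.34 and 9.91 at constant sites and 10.2 and 11.3 at other PU1 peaks. Pol II was 29.3, 28.9, 26.8 and 22.3 in 4 basal libraries against 20.6, 19.3, 17.2 and 15.2. H3K27ac at constant sites rose with the number of the 4 factors present in basal C57, from 23.1 and 22.8 at 6354 sites with none to 223 and 255 at 239 sites with all 4.

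**Figure D3:**
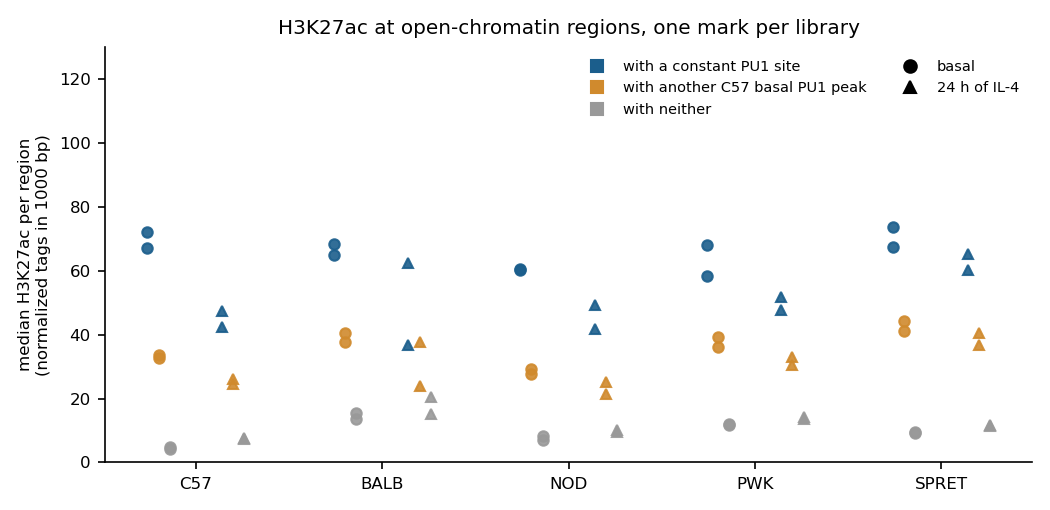
Median H3K27ac per open chromatin region (normalized tags in 1000 bp), 1 mark per library, in the 5 strains. Regions with a constant PU1 site (blue) lie above regions with another basal C57 PU1 peak (orange) and regions with neither (grey), in basal (circles) and 24 h libraries (triangles), with 67.2 and 72.0 against 32.6 and 33.5 in basal C57.

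H3K27ac at constant sites was lower on the whole after 24 h of IL-4, and a small number of regions changed strongly. Medians went from 67.2 and 72.0 to 42.4 and 47.3 normalized tags in C57, from 68.3 and 64.9 to 62.5 and 36.7 in BALB and from 60.7 and 60.3 to 49.2 and 41.7 in NOD. They went from 58.4 and 68.1 to 51.9 and 47.7 in PWK and from 67.5 and 73.8 to 65.2 and 60.3 in SPRET. The basal and 24 h libraries did not overlap in any of the 5 strains. The share of a library's tags inside all regions moved too, from 65.4% and 59.6% to 43.2% and 38.2% in C57 and from 48.4% and 51.0% to 51.8% and 39.6% in SPRET, and its part in this fall was not tested. Scaling each library by its median ratio over regions raised the log2 fold change of all regions by 0.31 in C57, 0.28 in BALB, 0.21 in NOD, 0.19 in PWK and 0.075 in SPRET. The median log2 fold change of constant sites was then -0.27, -0.10, -0.16, -0.09 and -0.07, against -0.61, -0.37, -0.37, -0.28 and -0.15 as deposited. Regions with another PU1 peak shared the fall, with medians of -0.42, -0.27, -0.27, -0.21 and -0.12 as deposited. Regions with no basal C57 PU1 peak had positive medians, of 0.31, 0.06, 0.15, 0.06 and 0.09. Over all regions, constant sites included, the medians were -0.28, -0.26, -0.22, -0.17 and -0.07. Among regions with enough tags for the fold rule below, those with no basal C57 PU1 peak had -0.39, -0.14, -0.15, -0.09 and -0.02. Constant sites with enough tags had -0.72, -0.42, -0.46, -0.32 and -0.18. The size of the fall at constant sites rested on single 24 h libraries. In the limma fit the median of constant sites in BALB was -0.42 with all libraries, -0.83 without the first 24 h library and -0.03 without the second. In SPRET it was -0.17, and -0.28 and -0.02 without them. Without the second 24 h library it went from -0.36 to -0.21 in NOD and from -0.29 to -0.14 in PWK.

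The study called a region induced or repressed when both H3K27ac and Pol II changed at least 2.5-fold between group means, with at least 16 and 8 tags. By this rule, which has no test, 185 constant-site regions rose and 464 fell in C57, or 0.732% and 1.84% of them. Over all C57 regions 0.936% rose and 1.14% fell. In BALB 278 rose and 161 fell (1.08% and 0.627%, against 1.48% and 0.507% of all), and in NOD 269 and 307 (0.952% and 1.09%, against 1.29% and 0.807%). In PWK 217 rose and 191 fell (0.844% and 0.743%, against 1.32% and 0.548%), and in SPRET 151 and 70 (0.666% and 0.309%, against 0.873% and 0.221%). Rises were thus a smaller share, and falls a larger share, at constant sites than over all regions in each strain. Regions with another PU1 peak had shares of rises close to those of constant sites, at 0.699%, 1.11%, 0.947%, 0.82902% and 0.545% in C57, BALB, NOD, PWK and SPRET, and smaller shares of falls, at 1.18%, 0.576%, 0.927%, 0.546% and 0.241%. Fewer of them reached the 16 and 8 tags, in C57 10413 of 17171 against 18556 of 25269 at constant sites. Among regions that did, 91 of 10197 fell in BALB against 161 of 19221 at constant sites. In NOD 184 of 11248 fell against 307 of 19998. Counted so, the share of falls was larger than at constant sites in BALB and NOD, and smaller in C57, PWK and SPRET. Regions with no basal C57 PU1 peak had the largest shares of rises, from 1.27% to 2.78%. After median-ratio scaling SPRET had 180 rises and 51 falls, PWK 275 and 146, NOD 337 and 228, BALB 285 and 213, and C57 248 and 325, so that rises outnumbered falls in NOD. Without the first 24 h Pol II library the falls were 349 in BALB and 597 in NOD, and without the third basal Pol II library of BALB they were 249. Without the second basal H3K27ac library of PWK 116 fell, without the first basal Pol II library of SPRET 42 fell, and without the first 24 h H3K27ac library of BALB 174 rose. Of 17923 constant sites with a region in all 5 strains, 35 rose (0.195%) and 5 fell (0.0279%) in every strain, while 17580 rose and 17372 fell in none. Of 6778 other PU1 peaks with such regions, 7 rose (0.103%) and 3 fell (0.0443%) in every strain.

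The test across regions, limma on log2(tags + 1) with Benjamini-Hochberg adjustment at 0.05, called constant-site regions in 4 of the 5 strains. In BALB 205 of 25679 rose and 199 fell, where 1.6% and 0.653% of all regions were called. In SPRET 174 of 22687 rose and 60 fell (0.994% and 0.192% of all). In PWK 71 of 25707 rose and 18 fell (0.487% and 0.0482%), and in NOD 6 of 28261 rose and 0 fell (0.0566% and 0%). In C57 limma called 0 in either direction, as it did over all regions (0% and 0%). At an unadjusted p under 0.05, 808 of 25269 rose and 6155 fell, with 14904 of all 67742 regions in either direction. On recovered reads, edgeR called 56 rises and 6 falls in C57 (261 and 10 over all regions). In NOD it called 21 rises and 0 falls (79 and 0 over all). DESeq2 called 371 rises and 402 falls in C57 (1472 and 631 over all regions) and 281 and 176 in NOD (930 and 287). In NOD limma at an unadjusted p under 0.05 had 891 rises and 2822 falls, with 8578 over all regions in either direction. With 2 libraries per group the counts rested on single libraries. Without the first 24 h library of BALB 2374 were called, of which 2253 fell, and without the first or the second basal library of BALB 146 and 159. Without either 24 h library, 0 were called in NOD, PWK and SPRET. Without the first or the second basal library, 65 and 15 were called in C57, 24 and 60 in SPRET, 219 and 453 in PWK and 542 and 387 in NOD. After median-ratio scaling the calls were 373 rises and 234 falls in BALB, 21 and 1 in PWK, 149 and 13 in SPRET, and 0 in C57 and NOD.

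In the C57 time course the median fall was largest at 1 h as deposited and, by a small margin, after median-ratio scaling. The counts of called falls at 1 h and 6 h changed order with other settings. The libraries of the basal state and 24 h are the same as above, in a table of 77955 regions with 27410 at constant sites, and the 3 comparisons share the basal libraries. Median H3K27ac at constant sites was 61.1 and 67.0 in the basal state, 36.3 and 22.03 at 1 h, 43.1 and 44.4 at 6 h, and 39.9 and 44.6 at 24 h. At 1 h 117 regions rose and 3858 fell (1.37% and 8.36% of all regions were called), at 6 h 259 rose and 1151 fell (2.67% and 2.46%), and at 24 h 121 rose and 164 fell (1.13% and 0.327%), all by limma. The second 1 h library had 20.5% of its tags in regions, against 44.0% in the first and 69.7% and 63.8% in the basal libraries. After median-ratio scaling 296 rose and 391 fell at 1 h, 427 and 787 at 6 h, and 282 and 120 at 24 h. Rises then outnumbered falls at 24 h. Over all regions the numbers were 1576 and 640, 2525 and 1213, and 1352 and 191. On recovered reads edgeR called 277 rises and 320 falls at 1 h and 409 and 858 at 6 h. At 24 h it called 265 and 106. Over all regions edgeR called 1616 and 531, 2546 and 1346, and 1344 and 166. DESeq2 called 1394 falls at 1 h and 1885 at 6 h (2174 and 3011 over all regions). By these 3 settings more regions fell at 6 h than at 1 h. The median log2 fold change of constant sites at 1, 6 and 24 h was -1.10, -0.47 and -0.59 as deposited and -0.33, -0.26 and -0.28 after median-ratio scaling. At 1 h it was -0.69 without the second 1 h library. Leaving out the second basal library left 46, 169 and 76 regions called at 1, 6 and 24 h. Leaving out the first gave 1697 at 1 h. Without the first 1 h library 12030, 3078 and 1735 were called, without the second 2937 at 6 h and, at 24 h, 305 rises and 1330 falls, and without the first or second 6 h library 699 and 711 at 1 h, 32 and 44 at 6 h, and 77 and 76 at 24 h. Without the first or second 24 h library 93 and 97 were called at 24 h.

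The H3K27ac change differed with the number of factors that came to a site. In C57, sites that gained none of the 4 factors had a median log2 fold change of -0.65 (8397 sites), those that gained 1 -0.63, 2 -0.54, 3 -0.14 and all 4 0.51 (126 sites). In BALB the medians were -0.39, -0.37, -0.30, -0.05 and -0.12 (49 sites for all 4), so that the last step was absent. In NOD they went from -0.41 to 0.29 at 3 factors (399 sites) and in PWK from -0.34 to 0.07 at 3 factors (432 sites) and 0.47 at 4 (26 sites). In SPRET they went from -0.19 to 0.26 at 3 factors (195 sites). The sets with all 4 held 10 sites in NOD and 7 in SPRET, with medians of 0.78 and 0.64. Sites that gained STAT6 had medians of -0.17, -0.19, 0.05, -0.18 and -0.01 in C57, BALB, NOD, PWK and SPRET, and sites with STAT6 in both states -0.73, -0.58, -0.54, -0.43 and -0.18. Sites with STAT6 in neither state lay between them, at -0.42, -0.29, -0.27, -0.22 and -0.14. Basal H3K27ac differed with the factors present before IL-4, as given above, and its part in these medians was not tested. By the fold rule, 64 (2.01%) of 3181 sites that gained STAT6 in C57 rose and 14 (0.440%) fell, against 93 (0.673%) and 365 (2.64%) of 13809 sites that held it in both states. These medians are descriptions without a test, and lists and tags came from separate libraries.

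**Figure D4:**
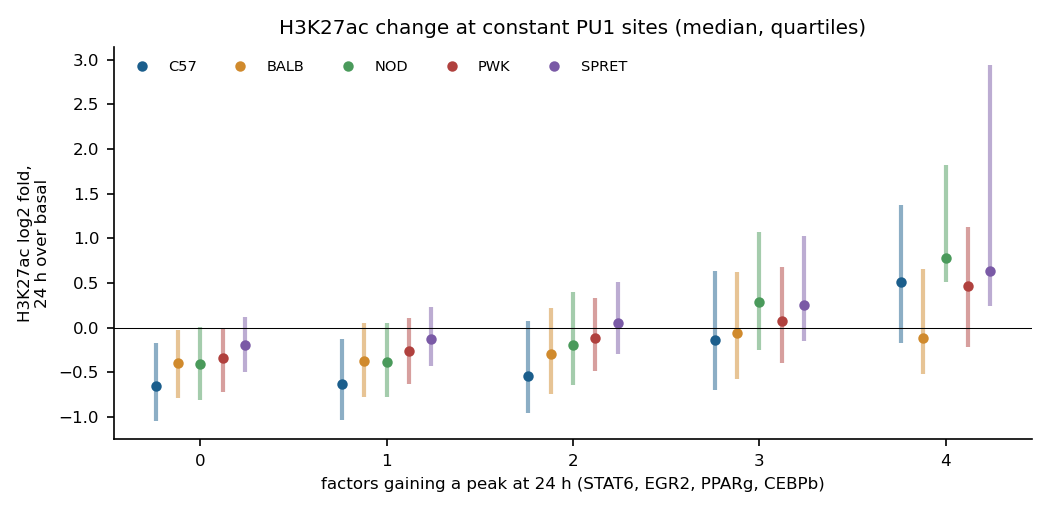
H3K27ac log2 fold change (24 h over basal group means, tags + 1) at constant PU1 sites against the number of factors (STAT6, EGR2, PPARg, CEBPb) that gained a peak at 24 h, with the median as a point and quartiles as a line, by strain. In C57 the median goes from -0.65 with no factor gained to 0.51 with 4 gained, and in BALB it is -0.12 with 4.

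Single sites show the range. They were named as the region with the largest H3K27ac rise or fall in each strain past the fold rule whose libraries did not overlap, so their changes in that strain are a description. The site in the intron of Rmi2, which encodes a subunit of a complex that resolves recombining DNA, had the largest rise in BALB, NOD and PWK. Its H3K27ac was 8.82 and 10.1 basal and 282 and 134 at 24 h in BALB, 14.1 and 3.97 then 328 and 159 in NOD, and 13.7 and 9.40 then 314 and 182 in PWK. In C57, where it was not the choice, it went from 10.9 and 8.56 to 266 and 188, and in SPRET from 5.13 and 2.63 to 166 and 85.1. The libraries did not overlap in any strain. The limma log2 fold change was 4.40 ± 0.44 (SE, n = 2 per group) in C57, with an adjusted p of 0.106 by limma, 0.0243 by edgeR and 4.46e-14 by DESeq2 (7.29e-15 to 0.413 over the alternatives). In SPRET it was 4.67 ± 0.48, with an adjusted p by limma of 0.000209 (2.76e-30 to 0.364 over the alternatives). Pol II there was 30.0, 2.41, 2.14 and 2.03 in the 4 basal C57 libraries and 104, 165 and 64.1 at 24 h. PU1 values rose with it, from 112 to 325 in C57, 129 to 229 in BALB, 106 to 320 in NOD, 94 to 183 in PWK and 72 to 120 in SPRET. STAT6 peaks lay there in the basal lists of 3 strains and the 24 h lists of all 5, and EGR2 peaks in 0 and then 4.

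The site 12127 bp upstream of Jak2, a kinase of cytokine receptors, had the largest rise in C57. H3K27ac went from 2.04 and 2.14 to 98.5 and 58.4 there. In the strains that did not choose it, it went from 6.61 and 4.77 to 88.9 and 42.9 in BALB, from 5.82 and 3.18 to 131 and 60.8 in NOD, from 8.58 and 3.92 to 108 and 55.4 in PWK, and from 5.98 and 5.27 to 75.8 and 46.3 in SPRET. The adjusted p by limma was 3.20e-06 in BALB, 0.0130 in PWK, 0.00258 in SPRET and 0.0539 in NOD, with log2 fold changes of 3.24 ± 0.56, 3.51 ± 0.59, 3.19 ± 0.47 and 4.08 ± 0.62 (SE, n = 2 per group). STAT6 was in 1 basal list (C57) and all 5 lists at 24 h, PPARg in 0 and 5, and EGR2 in 0 and 2. PU1 values went from 88 to 261 in C57 and from 92 to 153 in SPRET.

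Falls were seen at a site 83390 bp upstream of Itga6, an integrin chain that binds laminin, in every strain. H3K27ac went from 283 and 540.5 to 16.1 and 44.6 in C57, where it was the largest fall. It went from 201 and 222 to 45.2 and 18.6 in BALB, from 228 and 516 to 56.4 and 47.3 in NOD, from 46.4 and 121 to 15.5 and 25.8 in PWK and from 227 and 142 to 37.9 and 48.5 in SPRET. The basal libraries lay above the 24 h libraries in each strain. By limma the adjusted p was 0.00475 in BALB and 0.0103 in SPRET, with log2 fold changes of -2.82 ± 0.69 and -2.04 ± 0.37 (SE, n = 2 per group), and 0.104 in NOD and 0.194 in PWK. A PU1 peak in every list was given by the choice of sites. The PU1 values there were 337 and 196 in C57 and 318 and 186 in SPRET. The median values of all constant sites, basal and at 24 h, were 136 and 141 in C57 and 135 and 92 in SPRET. The site at Cx3cr1, the fractalkine receptor, 975 bp from the gene start, had the largest fall in BALB and PWK. It went from 137 and 212 to 16.6 and 10 in BALB, from 228 and 283 to 17.5 and 15.3 in PWK, from 74.6 and 244 to 7.64 and 17.1 in C57 and from 145 and 398 to 10.1 and 54.0 in NOD. SPRET had no open chromatin region within 500 bp. The limma adjusted p was 0.114 in C57 and 0.174 in NOD, the strains that did not choose it. No peak of EGR2, PPARg or CEBPb lay on it in any list, and STAT6 was in 4 basal and 3 later lists.

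Other large falls passed the fold rule in 1 strain, while H3K27ac was lower in some other strains too. The site 20535 bp upstream of Mvb12b, an ESCRT subunit, went from 111 and 30.2 to 6.51 and 6.75 in NOD, and from 19.7 and 3.29 to 9.70 and 5.38 in SPRET, where the libraries overlapped. Without overlap, it went from 24.4 and 27.8 to 7.64 and 13.8 in C57 and from 61.8 and 45.4 to 37.7 and 21.95 in PWK. The limma log2 fold change in BALB, where it went from 43.4 and 26.2 to 9.04 and 8.10, was -1.86 ± 0.56 (SE, n = 2 per group) with an adjusted p of 0.0400. The site in an intron of Garnl3 (chr2:32992188-32992392), nearest to the glucose transporter gene Slc2a8, went from 29.1 and 13.8 to 4.41 and 0 in SPRET. In C57 it was at 2.04 and 8.56 and then at 5.94 and 12.5, which overlap. Without overlap, it went from 5.88 and 10.1 to 5.27 and 4.76 in BALB and from 13.3 and 11.9 to 7.23 and 8.44 in NOD. In PWK it was at 6.87 and 25.8 and then at 4.04 and 10.5, which overlap.

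**Figure D5:**
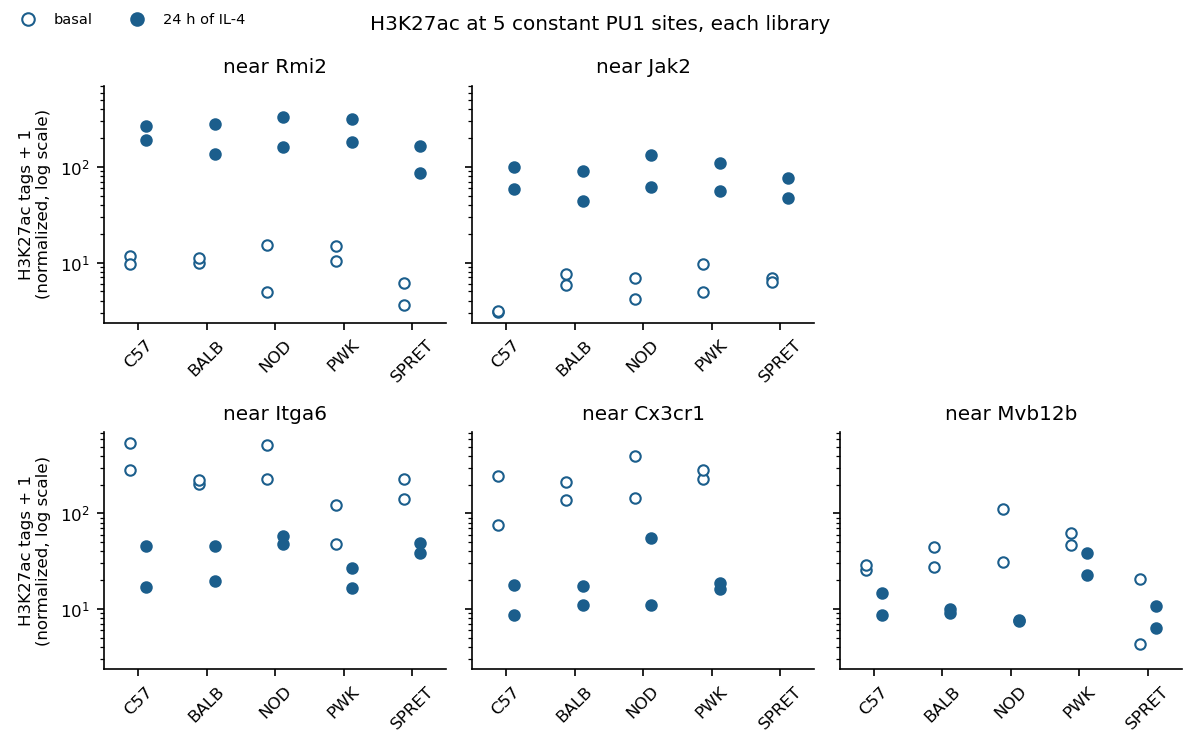
H3K27ac (normalized tags + 1, log scale) in each library at 5 constant PU1 sites with the largest rise (top) or fall (bottom) in a strain, basal (open) and 24 h of IL-4 (filled). Near Rmi2 all basal libraries lie between 2.63 and 14.1 tags and all 24 h libraries between 85.1 and 328; SPRET has no region near Cx3cr1.

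Of the 6 sites that had no basal STAT6, EGR2 or PPARg peak and all 3 at 24 h in 2 strains, 2 of the 3 with the highest H3K27ac at 24 h in C57 are described. The site 1854 bp upstream of Il1rl2, a receptor of the interleukin-1 family, went from 16.3 and 20.7 to 201 and 168 in C57, from 41.2 and 22.04 to 339 and 102 in BALB, from 31.6 and 28.6 to 334 and 145 in NOD and from 94.4 and 102 to 679 and 259.6 in PWK. The limma adjusted p was 0.0129 in BALB, 0.106 in C57, 0.107 in NOD and 0.108 in PWK. Its PU1 value went from 59 to 191 in C57 and from 35 to 28 in SPRET, where the median value of all constant sites went from 135 to 92 and no region lay within 500 bp. The site 7415 bp upstream of Ldha, lactate dehydrogenase, held CEBPb in all 10 lists. Its H3K27ac of 269 and 99.8 basal and 279 and 181 at 24 h in C57 overlapped, as it did in every other strain but NOD, where it went from 193 and 121 to 304 and 239.

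The strongest sites of the macrophage and IL-4 response genes are given by their C57 values alone, since limma called 0 of all regions in C57. Runx1 went from 499 and 719 to 284 and 287, Tlr4 from 588 and 632 to 383 and 359, Lgals3 from 642 and 782 to 550.0 and 505 and Spi1 from 245 and 174 to 112 and 101.07. Basal libraries lay above 24 h libraries at each of these 4. In the order given, their log2 fold changes were -1.09, -0.72, -0.43 and -0.97, against a median of -0.61 over all constant-site regions in C57. At Irf8 the libraries overlapped, with 51.6 and 65.6 and then 22.9 and 70.2. At the strongest site of Csf1r, in an intron 8128 bp from the start, H3K27ac was 758 and 778 and then 521 and 437, with Pol II at 733, 998, 933 and 868 and then 889, 608 and 657. Among the IL-4 response genes the strongest sites of Mrc1 went from 197 and 222 to 165 and 131, Tgm2 from 123 and 242 to 106 and 112, Mmp12 from 93.6 and 133 to 106 and 213 and Egr2 from 14.3 and 20.7 to 18.7 and 11.2. The libraries of Mmp12 and Egr2 overlapped. So did those of Myc, with 39.4 and 82.0 and then 63.7 and 104, and of Flt1, with 99.05 and 105.5 and then 87.4 and 147. Socs1, a feedback inhibitor of JAK kinases, had no region at its strongest site.

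PU1 itself was measured in libraries that the rule did not use, in Egr2flfl and LyzMCreEgr2flfl BMDMs at 4677 sites, of which 1346 matched a constant site. The authors' table holds sites where EGR2 peaks were induced at 24 h of IL-4, so they were chosen for a change with IL-4, and the changes at them do not stand for other constant sites. The loss of Egr2 in the Cre line was not analysed here. Median PU1 tags in 300 bp at these sites were 56.1 and 57.4 basal and 65.97 and 67.99 at 24 h in Egr2flfl, and 54.0 and 56.9 and then 59.0 and 61.6 in LyzMCreEgr2flfl. At the sites with another PU1 peak the basal medians were 19.6 and 19.8 in Egr2flfl, and at sites with neither 3.4 and 3.13. With IL-4, limma called 83 rises and 1 fall at constant sites in Egr2flfl (8.19% and 0.0428% of all 4677 sites) and 48 rises and 2 falls in LyzMCreEgr2flfl (2.8% and 0.107%). LyzMCreEgr2flfl against Egr2flfl at 24 h gave 4 constant sites higher and 71 lower (0.0855% and 9.36% of all). The direction turned with the scaling. Median-ratio scaling gave 23 rises and 42 falls with IL-4 in Egr2flfl and 21 and 5 in LyzMCreEgr2flfl. At 24 h it gave 125 constant sites higher and 27 lower in LyzMCreEgr2flfl. Over all 4677 sites these were 147 and 51, 74 and 12, and 143 and 244. The median log2 fold change of constant sites with IL-4 in Egr2flfl was 0.08 as deposited and -0.19 after that scaling. There edgeR called 41 rises and 226 falls, and 308 higher and 37 lower for the genotypes at 24 h. Over all 4677 sites edgeR called 373 and 274, and 384 and 408. Without either 24 h library of Egr2flfl, 0 constant sites were called with IL-4 in Egr2flfl or between genotypes. Without the first or second basal library of Egr2flfl 18 and 17 were called with IL-4 in Egr2flfl, and the genotype calls at 24 h fell to 46 without the first. In LyzMCreEgr2flfl the calls with IL-4 fell to between 10 and 28 without any one library other than its second basal one, and without the first or second 24 h library of that line the genotype calls were 14 and 47.

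Between the genotypes in the basal state limma called 0 constant sites (0% of all), as did edgeR and DESeq2. At an unadjusted p under 0.05 limma had 84 of 1346, against 421 of all 4677 sites. For the difference of the IL-4 change between genotypes limma called 0 (0% of all), and edgeR and DESeq2 also called 0. At an unadjusted p under 0.05 limma had 80 of 1346, against 434 of all 4677. STAT6 tags at the 1346 constant sites had medians of 7.22 and 4.79 basal and 16.2 and 14.2 at 24 h in Egr2flfl, and of 7.80 and 5.51 and then 10.3 and 7.89 in LyzMCreEgr2flfl. The 24 h libraries lay above the basal libraries in both lines, and those of Egr2flfl above those of LyzMCreEgr2flfl. PPARg libraries were uneven, with a basal library of Egr2flfl at a median of 0 and a 24 h library of LyzMCreEgr2flfl at 1.29 against 7.65 in the other.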

How the data were processed

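Per the labels and the study's methods, the authors mapped reads with Bowtie2 to strain genomes, shifted them to mm10 coordinates, called peaks with HOMER in each replicate and kept by IDR 1 peak list per group. The deposited lists give each peak a score and a value named count, which is not a whole number for PPARg and for EGR2 outside C57. The deposited tables give a tag signal per region (1000 bp at open chromatin for histone marks and Pol II, 300 bp for factors), which the authors scaled to 10000000 tags. Per the file headers, library depth was 4691644 to 29050468 tags. Multiplied back by that depth, 100% of values came within 0.0674 of a whole read. Columns that matched no sample (4) were left out, and the authors' own comparisons were not used.

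Peaks were joined by 1 bp overlap, and regions to sites by centres within 500 bp. Genes, promoters (1000 bp) and sequences came from GRCm38 with GENCODE, and motifs were read in 200 bp, on both strands, in 85915 windows. Tests used limma 3.58.1 on log2(tags + 1) without a filter, with Benjamini-Hochberg adjustment at 0.05 over all regions of a table, after a check on simulated data. Alternatives were a pseudocount of 5, a filter of 16 tags, median-ratio scaling, a replicate block, each library left out, and edgeR 4.0.16 and DESeq2 1.42.0 on recovered reads, in R 4.3.3 and Python 3.11.15. Sites were named by 4 rules: the 3 highest PU1 values, the strongest site of up to 8 genes per list with the most sites, the largest H3K27ac rise and fall per strain past the fold rule without overlap of replicates, and 3 sites without basal factor and with all 3 at 24 h. Some of the sites so named are not reported here. The sites, lists and rules were chosen with earlier results of these data known.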

Additional observations from a re-analysis of the deposited data

Results flagged for a closer look

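At the strongest constant PU1 site near Myc, basal C57 Pol II was 5.62, 4.81, 11.8 and 5.06 tags in 4 libraries. The gap of the highest to the next, divided by the range, was 0.884, above Dixon's critical value for 4 libraries at the 95% level. Chance passes it in about 5% of groups.

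The share of constant sites with a STAT6 peak went down by 3.18 points in NOD (-3.183, from 36.7% to 33.5%) and up in the other 4 strains. The share with an EGR2 peak went down in NOD by 7.24 points (-7.241, from 22.1% to 14.8%) and up in the other 4. The share with a CEBPb peak went down in SPRET by 3.07 points (-3.07, from 30.4% to 27.4%) and up in the other 4. These differences were not tested, since each list stands for its whole group. The EGR2 list of NOD shortened with its share, from 25341 to 16604 peaks, and the CEBPb list of SPRET from 31109 to 29217, while the STAT6 lists of NOD held 20653 and 20619. With lists of equal length these strains did not stand apart in direction. The STAT6 share then changed by -3.96, -1.14, -3.14, -2.82 and -1.18 points in C57, BALB, NOD, PWK and SPRET, and the CEBPb share by -1.26, -0.440, -0.489, -0.904 and -1.72. The EGR2 share changed by 0.483, -2.21, -0.899, -0.0891 and -0.896 points.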

How the results depend on the processing

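With 2 libraries per group, the counts of constant-site regions called by limma depended on single libraries. Leaving out one library gave 0 to 65 calls for C57, 146 to 2374 for BALB, 0 to 542 for NOD, 0 to 453 for PWK and 0 to 60 for SPRET. It gave 46 to 12030, 32 to 3078 and 76 to 1735 at 1, 6 and 24 h of the time course. For PU1 tags it gave 0 to 105 with IL-4 in Egr2flfl, 10 to 54 in LyzMCreEgr2flfl, 0 to 91 between genotypes at 24 h and 0 to 1 in the basal state. By the fold rule C57 had 168 to 252 rises and 375 to 558 falls, BALB 174 to 416 and 108 to 349, NOD 264 to 316 and 225 to 597, PWK 187 to 299 and 116 to 254, and SPRET 105 to 196 and 42 to 97. An arm left with 1 library was assumed to vary like the others. Peak lists hold 1 list per group, so no library could be left out there.

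Same-numbered libraries are not stated to be paired. Their deviations correlated at 0.470 in C57, 0.435 in BALB, 0.492 in NOD, 0.441 in PWK and 0.261 in SPRET, at 0.0140 to 0.452 over 6 pairs of groups in the time course and at 0.00541 to 0.0814 over 6 for PU1. With the replicate block falls outnumbered rises in each strain, also where rises were the larger number without it (BALB, NOD, PWK and SPRET). C57 then had 12810 calls (1286 rises, 11524 falls), BALB 1774 (528, 1246), NOD 6685 (1259, 5426), PWK 2382 (719, 1663) and SPRET 1556 (731, 825). The calls were 10026, 3859 and 2163 in the time course, and 107 and 77 for PU1 with IL-4 in the 2 lines, 96 between genotypes at 24 h, and 0 for the other 2 comparisons.

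Median-ratio scaling gave 607 calls in BALB, 0 in NOD, 22 in PWK, 687 at 1 h, 26 for PU1 in LyzMCreEgr2flfl and 152 between genotypes at 24 h. By edgeR there were 62 in C57, 21 in NOD, 30 in PWK, 597 at 1 h, and 267 (Egr2flfl) and 345 (genotypes) for PU1. By DESeq2 there were 773 in C57, 782 in BALB, 457 in NOD, 197 in PWK, 410 in SPRET, 1957, 2600 and 1166 in the time course, and 40, 21 and 49 for PU1. The filter of 16 tags gave 30 in NOD, 371 in SPRET and 78 for PU1 in LyzMCreEgr2flfl. A pseudocount of 5 gave 18 in NOD. By the fold rule it left C57 108 rises and 208 falls, BALB 178 and 59, NOD 177 and 118, PWK 131 and 69, and SPRET 94 and 30. The causes were not tested.

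With lists of equal length, gains of STAT6 were 3047 in C57, 2621 in BALB and 2184 in PWK. Gains of EGR2 were 860, 1456, 899, 898 and 1298 in C57, BALB, NOD, PWK and SPRET. Gains of PPARg were 1567, 1359, 1889 and 1152, and of CEBPb 990, 813, 1097 and 1420, in C57, BALB, NOD and PWK. Promoters held 14.3% of constant sites within 500 bp of a gene start and 15.7% by protein-coding genes. GAGGAA was in 57.8% of windows, and GAGGAAGT in 21.2% of 100 bp windows. Constant sites numbered 36489 with an overlap of at least 50%, 36157 with centres within 100 bp and 33450 with every list shortened to 73028 peaks.

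The log2 H3K27ac change turned in sign at 7 sites that were not called in the strains concerned. At Egr2 in C57 it was 0.0899 by median-ratio scaling, 0.0645 by edgeR, 0.0911 by DESeq2, and -0.5804 to 0.1134 (0.0203 among them) without a library. At Irf8 in C57 it was 0.0030 by edgeR, 0.0405 by DESeq2 and -1.3065 to 0.2675 without a library. Leaving out a library in C57 gave -0.0081 to 1.0324 at Myc, -0.2234 to 0.5197 at Flt1, -0.0741 to 0.9266 at Mmp12 and -0.2552 to 1.1640 at Ldha. At Ldha it also gave -0.1575 to 1.4491 (-0.0231 among them) for BALB, -0.1198 to 1.2842 for PWK and -0.2414 to 0.4801 for SPRET, and at Mvb12b -1.3222 to 0.9456 (0.1847 among them) for SPRET.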
